A study of Capra hircus with 3 samples.

Results

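The 8 genes DNMT1, DNMT3A, DNMT3B, UHRF1, TET1, TET2, TET3 and MORC1 make or keep DNA methylation, remove it, or act in the silencing that goes with it. They were chosen by symbol in the gene lists deposited with the counts. Each of the 8 symbols had 1 feature, among 16616 features with a symbol and 27271 features in all. Their identifiers are ENSCHIG00000023294 (DNMT1), ENSCHIG00000014247 (DNMT3A), ENSCHIG00000006391 (DNMT3B), ENSCHIG00000018588 (UHRF1), ENSCHIG00000009920 (TET1), ENSCHIG00000019979 (TET2), ENSCHIG00000019208 (TET3) and ENSCHIG00000022382 (MORC1). The samples were fetal gonads of the domestic goat (Capra hircus), labelled as male testis and by embryonic day as E85, E105 and E125, dissociated with enzymes and sequenced as single cells in droplets. The question set by the series is what changes in germ and somatic cells around the time when fetal male germ cells stop dividing. No genotype, strain or treatment is given in the labels, and each stage is 1 library for which the number of animals is not stated. No difference below therefore has a replicate check or a p-value.

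DNA methylation is laid down on unmethylated DNA by DNMT3A and DNMT3B and copied after each round of replication by DNMT1, which UHRF1 brings to newly copied DNA. TET1, TET2 and TET3 oxidise methylated cytosine, a step on the way to its removal. In the mouse, fetal germ cells lose most of their methylation, and male germ cells regain it before birth while they are arrested, and Morc1 is needed in mouse male germ cells to silence transposable elements.

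The files held 45339231 unique molecular identifiers (UMIs, each counting 1 captured RNA molecule) in the E85 library, 40741902 in that of E105 and 49692252 in that of E125. After filtering 6133 cells remained at E85, 6909 at E105 and 7318 in E125. The E125 library goes against its label as testis. Over all kept cells AMH, the Sertoli cell hormone, had 1401 counts per 1000000 UMIs (CPM) at E85 and 3805 CPM at E105, but 31.6 CPM in E125. The egg coat gene ZP3 stood at 1.21, 2.57 and 2110 CPM in that order of stages. The germ cells of E125 formed an oocyte-like cluster of 119 cells, and no E125 cell fell in the germ-like cluster of the other libraries. That library is therefore given as a description and enters no comparison between stages. Of the deposited barcodes, E85 and E105 shared 14, E85 and E125 shared 13, and E105 and E125 shared 9.

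Germ-like cells, named from marker genes in the clustering, numbered 96 at E105 and 239 at E85, and their median depth was 18930 and 18488 UMIs. DDX4, an RNA helicase of germ cells, was found in 96.9% of them at E105 and in 95.8% at E85. It stood at 418 CPM at E105 and 424 CPM at E85 in germ-like cells, and at 0.341 and 2.20 CPM in the Sertoli-like cells of those libraries, the somatic cells that enclose germ cells (2035 cells at E105 and 2497 at E85). Levels are CPM of the summed class, each with an exact Poisson interval, and ratios and shares have exact binomial intervals, all at 95%. These cover counting error only. Counts come from one end of each transcript, so levels are compared between cells and not between genes.

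MORC1, a member of a family of ATPases that act in gene silencing, was almost wholly a germ cell transcript. In E105 germ-like cells it stood at 318 CPM (293 to 345, 594 UMIs) and in E85 germ-like cells at 391 CPM (373 to 410, 1735 UMIs). In Sertoli-like cells it stood at 0.781 CPM at E105 (16 UMIs) and 1.67 CPM at E85 (44 UMIs). The ratio of germ-like to Sertoli-like cells was 408 at E105 (249 to 718) and 235 at E85 (174 to 324), and with no doublets removed it was 144 and 79.0. Germ-like cells were 1.39% of the cells at E105 and 3.90% at E85, and held 95.2% and 95.7% of the MORC1 UMIs. MORC1 was also the leading gene of the germ-like cluster, so its level there is a description of the cluster. With the 8 genes left out of the clustering, 93 of the 96 E105 cells and 237 of the 239 E85 cells were again placed in it.

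The few MORC1 UMIs outside germ-like cells did not keep 1 ratio to DDX4. At E85 there were 0.922 MORC1 UMIs for each DDX4 UMI in germ-like cells (0.864 to 0.985), 0.759 in Sertoli-like cells (0.501 to 1.14, 44 and 58 UMIs) and 0.396 in stromal-like cells (0.227 to 0.668, 21 and 53 UMIs). At E105 the ratio was 0.761 in germ-like cells (0.682 to 0.847), 2.29 in Sertoli-like cells (0.890 to 6.57, 16 and 7 UMIs) and 0.579 in stromal-like cells (0.249 to 1.28, 11 and 19 UMIs). The stromal-like interval at E85 and the Sertoli-like interval at E105 lie outside the germ-like ones of their library. The part of free RNA in these counts was not tested. With every cell thinned to 4000 UMIs, MORC1 was seen in 56.5% of germ-like cells at E105 (45.8 to 66.8, 52 of 92 cells) and in 64.6% at E85 (57.9 to 70.8, 144 of 223 cells). In Sertoli-like cells, which should lack it, the share was 0.385% at E105 (0.155 to 0.793) and 0.586% at E85 (0.321 to 0.982), and their unthinned median depth was 9837 and 10222 UMIs. In oocyte-like cells of E125 the share was 7.06%. Without thinning the germ-like share was 87.5% and 87.9%.

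The oocyte-like cells of E125 carried little MORC1, at 11.9 CPM (9.87 to 14.2). That was place 3 of the 31 combinations of class and library with at least 50 cells, after both germ-like groups and before cycling stromal-like cells of E85 at 4.45 CPM (1.21 to 11.4). Germ-like cells were 26.8-fold above the oocyte-like level at E105 (22.0 to 32.8) and 32.9-fold above it at E85 (27.4 to 39.9). The oocyte-like cells, with a median of 75539 UMIs, still held 91.7% of the MORC1 UMIs of their library while they were 1.63% of its cells. Stage, cell type and library differ together in this contrast and cannot be told apart.

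DNMT3B was also far higher in germ-like than in Sertoli-like cells. It stood at 20.4 CPM at E105 (14.4 to 27.9, 38 UMIs) and 21.9 CPM at E85 (17.7 to 26.7, 97 UMIs). Sertoli-like cells had 0.829 CPM at E105 and 0.795 CPM at E85, which gave ratios of germ-like to Sertoli-like cells of 24.5 (13.5 to 46.4) and 27.5 (17.0 to 46.4). Both germ-like groups headed the order over the 31 combinations. The next was the cluster led by VPREB1, a gene of B cell precursors, and JCHAIN at E105. It had 12.0 CPM, and its interval of 4.40 to 26.1 overlaps both. Germ-like cells held 36.2% of the DNMT3B UMIs at E105 and 64.7% at E85. The oocyte-like cells had 3.80 CPM, and germ-like cells were 5.36-fold (3.34 to 8.60) and 5.76-fold (3.93 to 8.58) above them at E105 and E85. Per cell there were 0.328 DNMT3B UMIs in the deeper oocyte-like cells, and 0.396 and 0.406 in germ-like cells of E105 and E85.

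**Figure D1:**
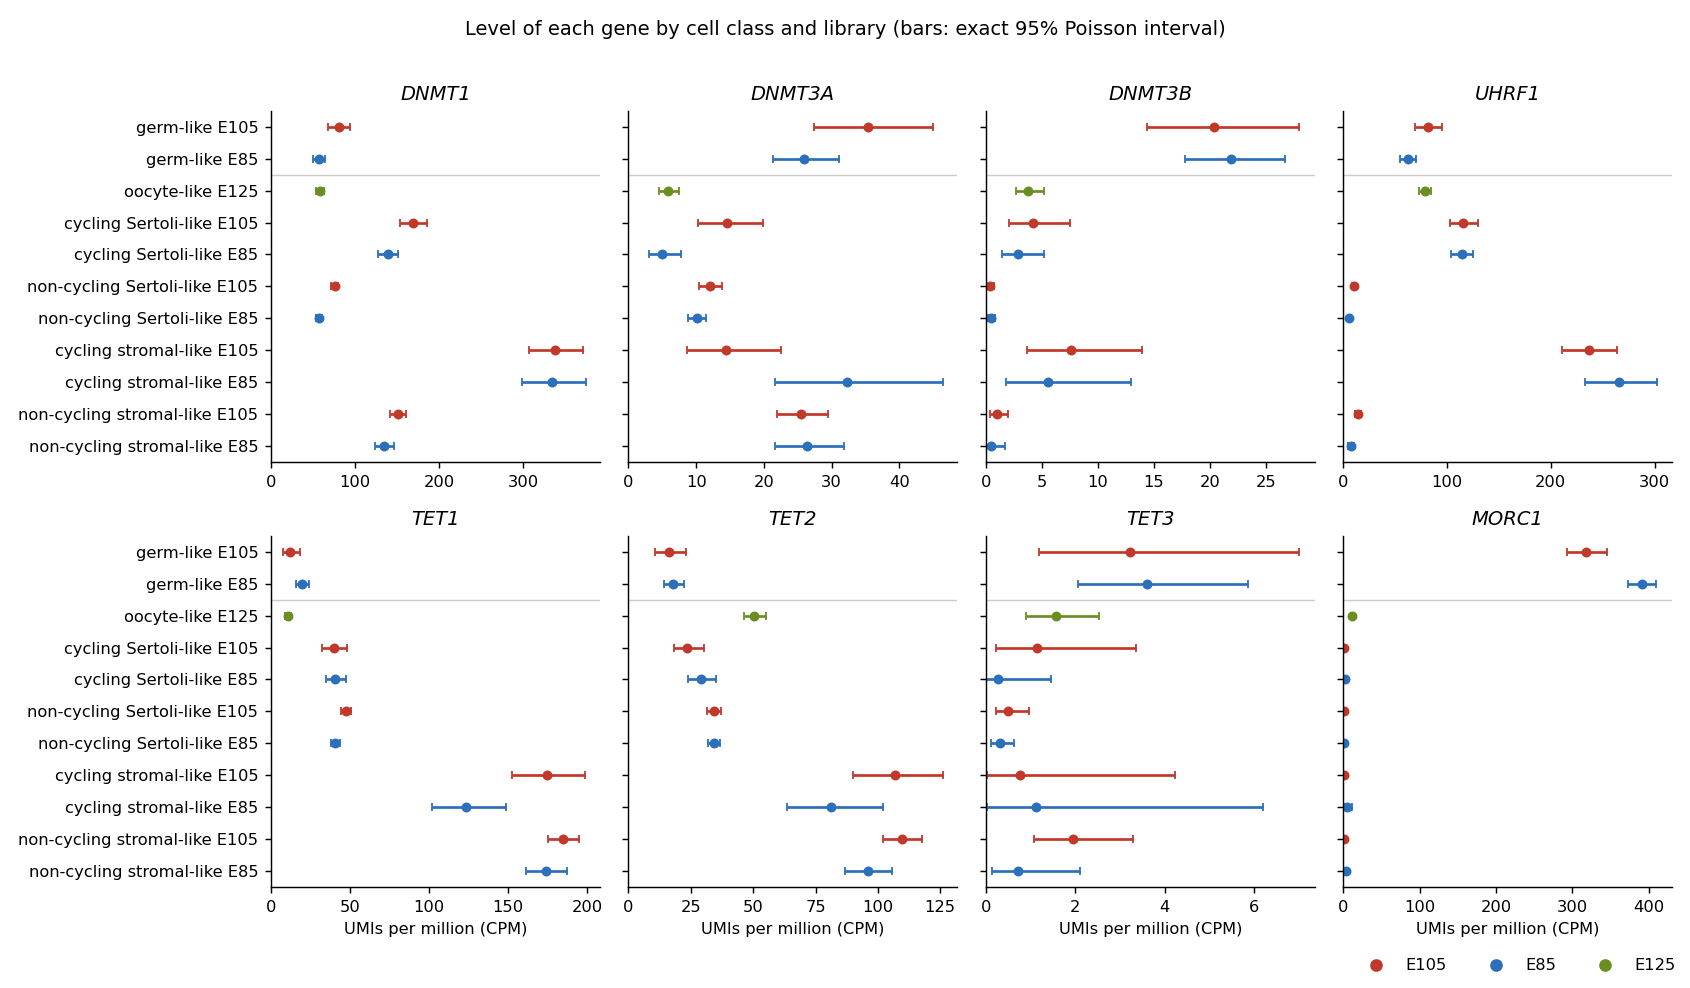
Level of each of the 8 genes in CPM (horizontal axis, own scale for each gene) by cell class and library, where points are the level of the summed class and bars its exact 95% Poisson interval. MORC1 reads 318 and 391 CPM in germ-like cells of E105 and E85 and at most 11.9 CPM in any other class shown, and the germ-like points of TET1 and TET2 lie below those of every Sertoli-like and stromal-like class.

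DNMT3A, the other enzyme of new methylation, was less restricted. It stood at 35.4 CPM in E105 germ-like cells (27.3 to 45.0, 66 UMIs) and 25.9 CPM in E85 germ-like cells (21.4 to 31.1, 115 UMIs). In Sertoli-like cells it stood at 12.3 CPM at E105 and 9.35 CPM at E85, giving ratios of 2.86 (2.15 to 3.77) and 2.77 (2.20 to 3.47). E105 germ-like cells were first of the 31 combinations, but endothelial-like cells of E125 followed at 35.3 CPM, and E85 germ-like cells were in place 9. The oocyte-like cells were in place 30, at 5.84 CPM, which is 6.05-fold below E105 germ-like cells (4.20 to 8.73) and 4.44-fold below E85 germ-like cells (3.22 to 6.17). Per cell the gap was small, with 0.504 DNMT3A UMIs in the deeper oocyte-like cells. Germ-like cells had 0.6875 at E105 and 0.481 at E85.

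DNMT1 and UHRF1, the pair that copies methylation at replication, were lower in germ-like cells than in cycling Sertoli-like and cycling stromal-like cells of the same libraries. DNMT1 stood at 80.4 CPM in E105 germ-like cells (68.0 to 94.3, 150 UMIs) and 57.3 CPM in E85 germ-like cells (50.4 to 64.8, 254 UMIs). That was places 24 and 29 of 31, and the highest values were 338 and 335 CPM in cycling stromal-like cells of E105 and E85. Against all Sertoli-like cells, at 87.8 and 68.8 CPM, the ratio was 0.916 at E105 (0.770 to 1.08) and 0.833 at E85 (0.727 to 0.95). The oocyte-like cells, at 58.7 CPM, were in place 28. Per cell there were 1.56 DNMT1 UMIs in E105 and 1.06 in E85 germ-like cells, and 5.07 in the deeper oocyte-like cells. Sertoli-like cells, which were less deep, had 0.884 at E105 and 0.727 at E85, below the germ-like values of their library.

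UHRF1 stood at 81.4 CPM in E105 germ-like cells (69.0 to 95.5, 152 UMIs) and 62.2 CPM in E85 germ-like cells (55.1 to 70.0, 276 UMIs), against 23.5 CPM and 21.6 CPM in Sertoli-like cells. These were places 9 and 13 of 31, with the oocyte-like cells between them at 78.5 CPM (73.2 to 84.1). Per cell there were 1.58 UHRF1 UMIs in E105 and 1.15 in E85 germ-like cells, and 6.77 in the deeper oocyte-like cells. The cluster led by VPREB1 and JCHAIN was highest, at 684 CPM at E105 and 613 CPM at E85, and a cluster of E125 led by KRT7 and CITED1 was lowest, at 1.77 CPM. The ratios of 3.47 (2.87 to 4.17) and 2.88 (2.49 to 3.33) hide a split by cycling. Sertoli-like clusters were called cycling where TOP2A, a topoisomerase of dividing cells, was over 50 CPM, a limit set after the values were seen. The germ-like cluster itself, with 186 CPM of TOP2A, was over that limit, as were some other clusters. Germ-like cells had 0.704 times the UHRF1 level of cycling Sertoli-like cells at E105 (0.575 to 0.858) and 0.546 times at E85 (0.468 to 0.636), but 8.18 and 10.4 times that of non-cycling ones. For DNMT1 the germ-like level was 0.475 and 0.412 times that of cycling Sertoli-like cells and 1.06 and 1.01 times that of non-cycling ones.

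As a share of all UMIs, TET1 and TET2 were low in germ-like cells. TET1 stood at 12.3 CPM at E105 (7.81 to 18.5, 23 UMIs) and 19.6 CPM at E85 (15.7 to 24.2, 87 UMIs), in places 30 and 29 of 31. The lowest place was that of the oocyte-like cells, at 10.5 CPM, and the highest that of Schwann-like cells of E125, at 199 CPM. Non-cycling stromal-like cells had 185 CPM at E105. Germ-like cells had 0.265 times the TET1 level of Sertoli-like cells at E105 (0.167 to 0.400) and 0.482 times at E85 (0.383 to 0.601). Per cell the gap was smaller, since germ-like cells were deeper. There were 0.240 TET1 UMIs in a germ-like and 0.468 in a Sertoli-like cell at E105, and 0.364 and 0.430 at E85. The deeper oocyte-like cells, lowest in CPM, had 0.908 TET1 UMIs per cell, more than any of these.

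TET2 stood at 16.1 CPM in E105 germ-like cells (10.8 to 22.9, 30 UMIs) and 17.8 CPM in E85 germ-like cells (14.1 to 22.2, 79 UMIs), the last 2 places of 31. The highest level was 203 CPM in lymphoid-like cells of E125, followed by 170 CPM in its non-cycling stromal-like cells. The ratios to Sertoli-like cells were 0.490 at E105 (0.328 to 0.706) and 0.532 at E85 (0.417 to 0.670). In germ-like cells with few Sertoli marker UMIs the E105 ratio was 1.11 on 18 UMIs. Per cell, TET2 was near the Sertoli-like level, with 0.3125 UMIs in germ-like and 0.330 in Sertoli-like cells at E105. At E85 there were 0.331 and 0.354. The oocyte-like cells parted from the germ-like cells here, with 50.5 CPM of TET2, so that the germ-like level was 0.318 times theirs at E105 (0.212 to 0.460) and 0.352 times at E85 (0.275 to 0.447). TET3 was barely detected, with 6 UMIs in E105 germ-like cells (3.21 CPM, 1.18 to 7.0) and 16 in E85 germ-like cells (3.61 CPM, 2.06 to 5.86). Its ratio to Sertoli-like cells was 5.49 at E105 (1.69 to 15.8, against 12 UMIs) and 11.9 at E85 (4.81 to 32.1, against 8 UMIs). Germ-like cells held 12.2% of the TET3 UMIs at E105 and 42.1% at E85. No class with at least 50 cells exceeded the 6.83 CPM of E125 macrophage-like cells (1.86 to 17.5).

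Among genes with at least 20 UMIs over both classes, 4 of 7 members at E105 were at least 2-fold higher in germ-like than in Sertoli-like cells and 2, TET1 and TET2, were at least 2-fold lower, while TET3 had 18 UMIs and was not counted. Of all genes 50.3% were past that fold upward at E105 and 14.8% downward. At E85 the count was 5 of 8 higher and 1 lower, beside 49.4% and 14.6% of all genes. The share of members higher in germ-like cells was thus near that of all genes, whose median log2 ratio was 1.06 at E105 and 1.00 at E85. Relative to that median, MORC1 was 7.61 and 6.87 higher on the log2 scale, DNMT3B 3.56 and 3.78 higher, and DNMT3A 0.46 and 0.47 higher, at E105 and E85. TET3 was 2.57 higher at E85. TET1 was at -2.98 and -2.05, TET2 at -2.09 and -1.91 and DNMT1 at -1.19 and -1.27 on that scale.

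**Figure D2:**
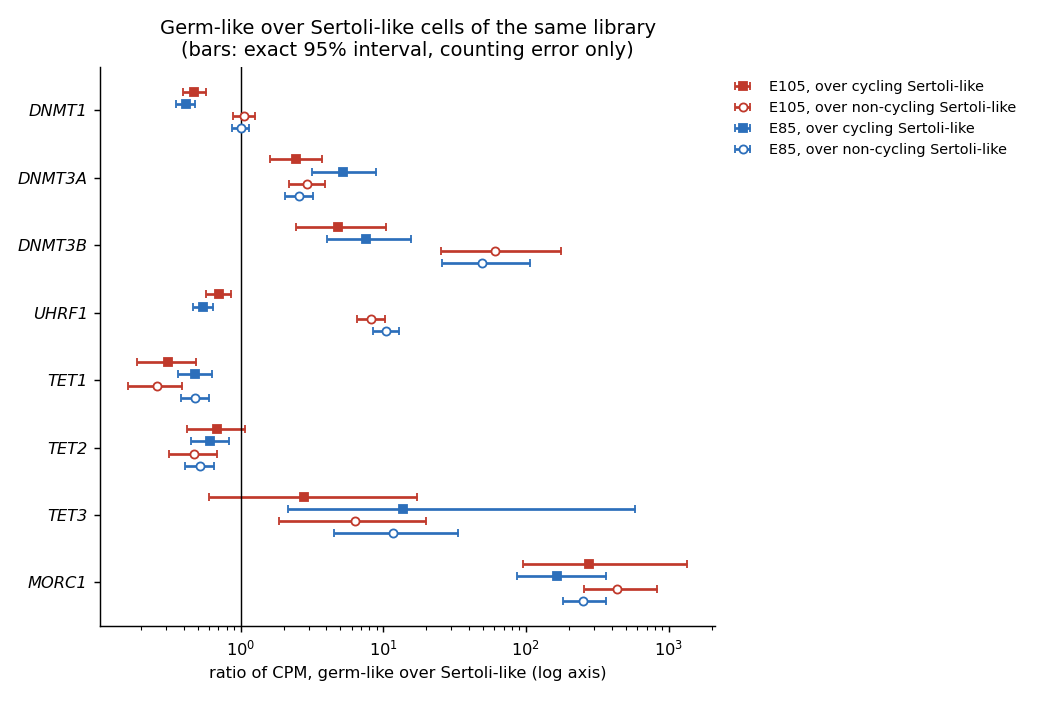
Ratio of CPM in germ-like over Sertoli-like cells of the same library (log axis) for the 8 genes, with filled squares against cycling and open circles against non-cycling Sertoli-like cells and bars for exact 95% intervals. UHRF1 changes side, at 0.704 and 0.546 against cycling cells and 8.18 and 10.4 against non-cycling ones, while MORC1 and DNMT3B lie right of 1 and TET1 left of 1 in every comparison.

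Between stages no member was 1.5-fold higher at E105 in germ-like cells, and TET1 was past that fold in the lower direction. A difference of at least 1.5-fold was set as the limit, with at least 20 UMIs over both stages, and 1 of 8 members passed it. Of 10472 genes 24.8% passed it, 19.9% higher and 4.85% lower at E105. The median member had a log2 ratio of E105 to E85 of -0.13, while the median of all genes was 0.19. At this depth and with 1 library a stage, these counts single out no member.

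TET1 had a ratio of 0.628, with an interval that reaches 1 (0.378 to 1.00), and a log2 ratio of -0.67, or -0.86 relative to the median of all genes. The intervals of its 2 levels overlap, and 96.2% of genes had a higher ratio. In Sertoli-like, stromal-like and endothelial-like cells the TET1 ratio was 1.14 (1.05 to 1.25), 1.11 (1.02 to 1.21) and 1.31 (1.05 to 1.64). It was 0.798 in macrophage-like cells (0.542 to 1.18), which overlaps the germ-like interval, and 0.978 in cycling Sertoli-like cells (0.755 to 1.26). Lymphoid-like cells had 1.16 (0.828 to 1.65), mural-like cells 1.57 (0.836 to 3.06) and the cluster led by VPREB1 and JCHAIN 1.06 (0.649 to 1.70). With each germ-like cell thinned to 6700 UMIs the germ-like ratio was 0.369, on 6 UMIs at E105 and 40 at E85.

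MORC1 had a ratio of 0.813 (0.740 to 0.893), a log2 ratio of -0.30, or -0.49 relative to the median. The 2 intervals of its level do not overlap. Per cell the median was 4 UMIs at E105 (0 to 32, with 12 of 96 cells at 0) and 5 UMIs at E85 (0 to 43, with 29 of 239 cells at 0), so the cells overlap over almost the whole range. MORC1 per DDX4 UMI was 0.761 at E105 and 0.922 at E85.

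DNMT1 had a ratio of 1.40 (1.14 to 1.72) and UHRF1 of 1.31 (1.07 to 1.60). The DNMT1 intervals of both stages do not overlap, and those of UHRF1 overlap narrowly. Their log2 ratios, 0.49 and 0.39, stand 0.29 and 0.19 above the median of all genes. DNMT1 was also higher at E105 in Sertoli-like cells, at 87.8 CPM against 68.8 CPM at E85 (1.28, 1.19 to 1.36). In germ-like cells with few Sertoli marker UMIs the UHRF1 ratio was 0.600 (0.339 to 1.00), and with DMRT1 and WT1 left out of those markers it was 1.34 (1.00 to 1.78). UHRF1 in Sertoli-like cells had a ratio of 1.09, and in non-cycling Sertoli-like cells it stood at 9.96 CPM at E105 and 5.98 CPM at E85 (1.67, 1.32 to 2.10).

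DNMT3A had a ratio of 1.36 (0.992 to 1.86) in germ-like cells and 1.32 in Sertoli-like cells (1.10 to 1.58). DNMT3B (0.931, 0.622 to 1.37), TET2 (0.902, 0.572 to 1.39) and TET3 (0.891, 0.286 to 2.40) had intervals that include 1. For TET3 the interval reaches beyond a 2-fold difference either way, so no difference was detectable at this depth.

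**Figure D3:**
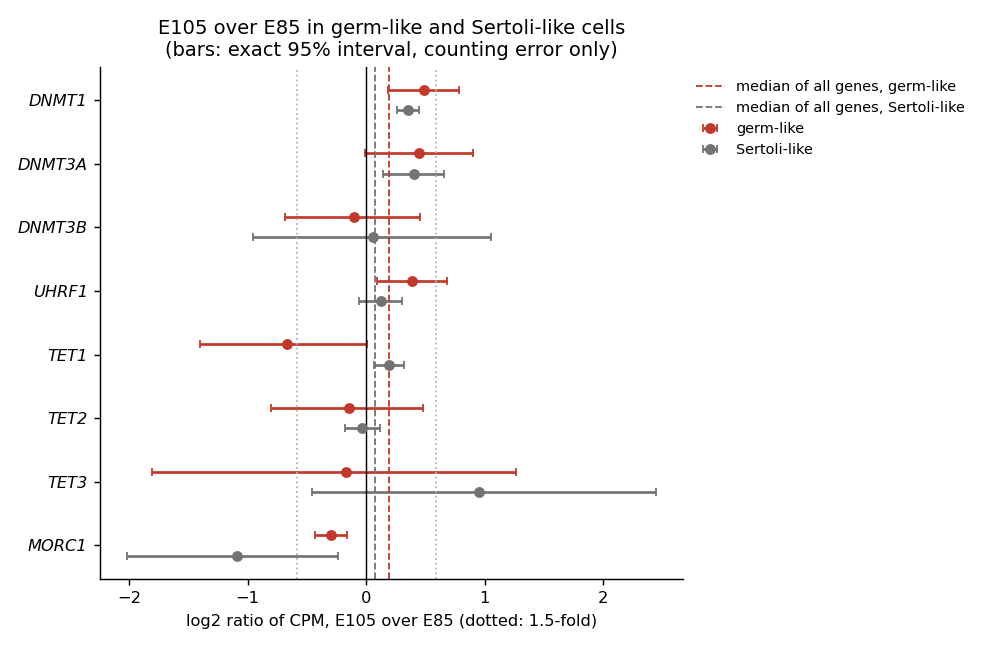
Log2 ratio of CPM at E105 over E85 for the 8 genes in germ-like (red) and Sertoli-like (grey) cells, with exact 95% intervals, dashed lines at the medians of all genes and dotted lines at 1.5-fold. TET1 is the one germ-like point past a dotted line, at -0.67, and the germ-like points of DNMT1, DNMT3A and UHRF1 lie right of the germ-like median of 0.19.

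Markers of some other cells differed between the stages in germ-like cells. Sertoli markers summed to 1669 CPM at E105 and 1056 CPM at E85 (1.58, 1.51 to 1.65), with 6 of 9 higher at E105. Most of these UMIs were DMRT1, a transcription factor of the male gonad, and WT1, a transcription factor of gonadal support cells. DMRT1 stood at 982 CPM at E105 and 708 CPM at E85 in germ-like cells, above its 81.3 and 64.3 CPM in Sertoli-like cells. WT1 stood at 213 and 154 CPM in germ-like cells, against 86.5 and 74.0 CPM in Sertoli-like cells. The list without those 2 genes had 475 CPM at E105 and 194 CPM at E85 (2.44, 2.22 to 2.69), which is 4.46% and 4.21% of its Sertoli-like level. AMH in germ-like cells was at 2.71% of its Sertoli-like level at E105 and 1.78% at E85, and DHH, a ligand made by Sertoli cells, had 0 UMIs at E105 and 1 at E85. The 4 Leydig markers summed to 14.5 CPM at E105 and 3.83 CPM at E85, and the 6 pregranulosa markers to 140 and 94.7 CPM (1.48, 1.27 to 1.73), with 6 of 6 higher. Endothelial markers had a ratio of 1.33 (1.03 to 1.69), myoid markers of 1.22 (1.09 to 1.37), mesothelial markers of 1.28 (1.10 to 1.49) and macrophage markers of 0.614 (0.370 to 0.980). The median of all genes, a log2 ratio of 0.19, lies within the endothelial, myoid and mesothelial intervals. Stromal (1.07, 0.962 to 1.18), lymphoid (1.28, 0.857 to 1.88) and oocyte markers (0.785, 0.532 to 1.14) had intervals that include 1. So did mural, Schwann and erythroid markers. The median mitochondrial share was 8.59% and 7.88%. The part of these differences in the stage ratios was not tested, except that ratios in cells with few Sertoli marker UMIs are given with the processing alternatives.

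MORC1 was uneven among germ-like cells. With cells thinned to 6700 UMIs, which left out 9 cells at E105 and 25 at E85, it was absent from 25 of 87 E105 cells and 47 of 214 E85 cells, and had 3 or more UMIs in 29 and 94 cells. The highest count was 13 at E105 and 14 at E85. The variance over the mean, which is 1 for pure counting error, was 3.84 at E105 and 3.07 at E85 for MORC1. It was 1.10 and 1.22 for DDX4, 1.44 and 1.20 for the germ cell RNA-binding protein gene DAZL, and 0.872 to 1.28 for the other members. PIWIL4 and MAEL, which act in the piRNA pathway against transposable elements, had 1.74 and 1.34, and 1.70 and 1.66. Where cells differ, this measure rises with the mean count. The mean was 2.56 and 2.98 UMIs for MORC1 and 2.72 and 2.82 for DDX4, but 0.0327 to 0.552 for the other members. It therefore cannot tell whether the other members were less uneven than MORC1.

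**Figure D4:**
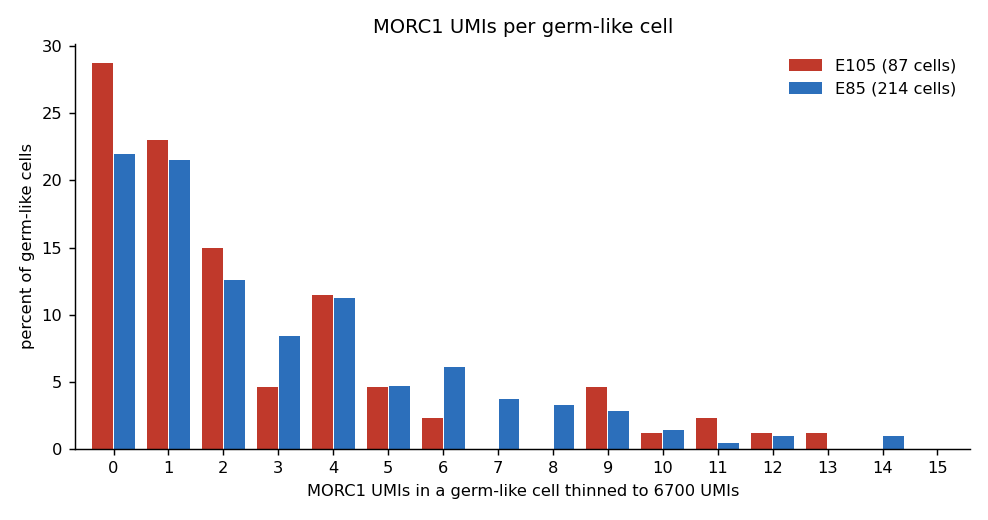
Share of germ-like cells (vertical axis, percent) by number of MORC1 UMIs after thinning each cell to 6700 UMIs, with 87 cells at E105 (red) and 214 at E85 (blue). In both libraries the counts spread over a long range, with 25 and 47 cells at 0 and the highest count at 13 and 14.

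The uneven level of MORC1 went with that of some other members, on low counts. In cells with 0, 1 or 2, and at least 3 MORC1 UMIs at E105, DNMT3B had 0.040, 0.152 and 0.379 UMIs per cell, and at E85 it had 0.085, 0.082 and 0.351. TET2 had 0.040, 0.121 and 0.241 at E105 and 0.085, 0.041 and 0.245 at E85. The E105 values rest on 1, 5 and 11 UMIs of DNMT3B and 1, 4 and 7 of TET2. DNMT1 ran the other way, with 0.760, 0.424 and 0.241 at E105 and 0.553, 0.329 and 0.245 at E85. For DNMT3B, TET2 and DNMT1 the intervals of the lowest and highest bins overlap, except for DNMT3B at E85. DNMT3A had 0.080, 0.182 and 0.483 at E105 and 0.128, 0.233 and 0.202 at E85. UHRF1 had 0.720, 0.485 and 0.483 at E105 and 0.532, 0.260 and 0.404 at E85. PIWIL4 had 0.8, 0.939 and 1.66 at E105 and 0.468, 0.616 and 1.09 at E85, and TOP2A had 1.96, 0.970 and 0.793 at E105 and 1.70, 1.01 and 0.394 at E85. DDX4 varied less, with 2.80, 2.64 and 2.76 at E105 and 2.43, 2.81 and 3.03 at E85. Other germ markers ran in other directions. DAZL had 3.48, 2.09 and 2.79 at E105 and 3.28, 2.73 and 2.22 at E85. MAEL had 4.36, 3.97 and 2.86 at E105 and 2.68, 4.21 and 4.27 at E85. These bins are ranges of 1 measure, not cell types, and were chosen after the values were seen.

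DMRT1 ran opposite to MORC1 among germ-like cells. Germ-like cells of each library were split at the median of their DMRT1 UMIs after thinning to 6700, which was 5 UMIs at E105 with 9 cells at that value and 3 UMIs at E85 with 30. This split was made after the values were seen and its sides are ranges, not types. MORC1 had 1.07 UMIs per cell above the median and 3.83 at or below it at E105 (43 and 180 UMIs, 40 and 47 cells), a ratio of 0.281 (0.196 to 0.393). At E85 it had 1.52 and 4.32 UMIs per cell (157 and 480 UMIs, 103 and 111 cells), a ratio of 0.352 (0.292 to 0.423).

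DNMT3B followed MORC1, with 2 UMIs above and 15 at or below the DMRT1 median at E105 (ratio 0.157, 0.0174 to 0.674) and 4 and 39 UMIs at E85 (0.111, 0.0287 to 0.306). TET2 had a ratio of 0.839 at E105 (0.210 to 3.07) and 0.392 at E85 (0.151 to 0.914). PIWIL4 had 0.487 (0.304 to 0.760) and 0.466 (0.329 to 0.652), and the receptor gene KIT 0.572 (0.306 to 1.03) and 0.505 (0.358 to 0.706). DDX4 had ratios of 1.07 (0.822 to 1.39) and 0.995 (0.846 to 1.17), both intervals including 1. DAZL went the other way, at 1.43 (1.10 to 1.86) and 1.37 (1.16 to 1.63). MAEL had 0.981 (0.783 to 1.23) and 0.835 (0.726 to 0.959). The intervals of the germ markers PIWIL2, TDRD1, SYCP3, POU5F1, NANOS3 and TFAP2C included 1 in both libraries.

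TOP2A was higher in the cells with more DMRT1, at 2.22 (1.46 to 3.42) at E105 and 2.53 (1.85 to 3.52) at E85, and PCNA, the replication clamp, at 2.94 (1.08 to 9.24) and 1.81 (1.04 to 3.23). DNMT1 had 1.96 (0.993 to 4.00) and 1.31 (0.803 to 2.14). UHRF1 had 2.14 (1.15 to 4.13) at E105 and 0.886 (0.558 to 1.40) at E85. The Sertoli markers other than DMRT1 and WT1 had 1.07 (0.833 to 1.38) and 0.838 (0.649 to 1.08), both intervals including 1. Before thinning, the median depth was 24286 UMIs above and 16677 at or below the median at E105, and 21615 and 17352 UMIs at E85.

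**Figure D5:**
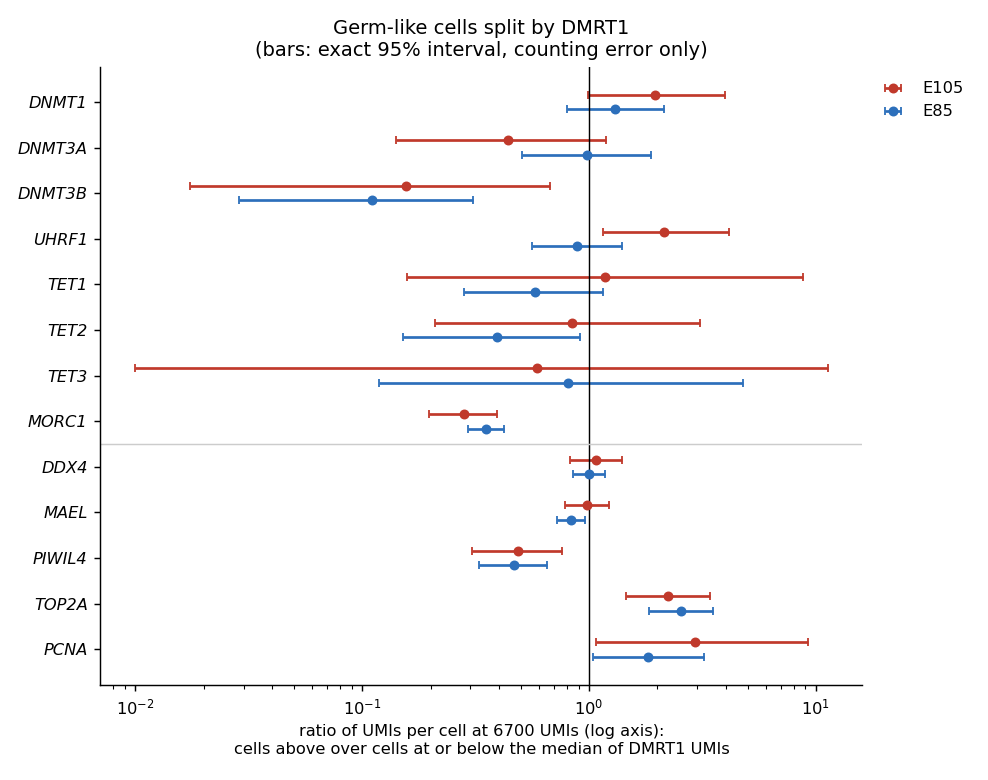
Ratio of UMIs per germ-like cell above over at or below the median of DMRT1 UMIs, after thinning to 6700 UMIs (log axis), for the 8 genes and 5 germ cell and cell cycle genes at E105 (red) and E85 (blue), with exact 95% intervals. MORC1 reads 0.281 and 0.352, and DNMT3B 0.157 and 0.111, while DDX4 lies at 1.07 and 0.995 and TOP2A at 2.22 and 2.53.

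The stage ratio of MORC1 depended on how germ-like cells were split. When germ-like cells were split at the pooled median of their share of Sertoli marker UMIs, most of which are DMRT1, MORC1 stood at 198 CPM at E105 (175 to 223, 63 cells) and 204 CPM at E85 (186 to 223, 104 cells) above it. At or below it MORC1 stood at 652 CPM at E105 (583 to 727, 33 cells) and 598 CPM at E85 (565 to 632, 135 cells). The intervals of the 2 stages overlap on either side of the median, and those of the sides do not overlap within a stage. The upper side held 63 of 96 germ-like cells at E105 and 104 of 239 at E85. When the split used Sertoli markers other than DMRT1 and WT1, MORC1 was lower at E105 on both sides. Above the median it stood at 289 CPM (254 to 328) against 327 CPM at E85 (304 to 351), and these intervals overlap. At or below the median it stood at 342 CPM (307 to 379) against 463 CPM at E85 (434 to 493), and these do not. The ratio at or below the median was 0.738 (0.651 to 0.835), further from 1 than the 0.813 of all germ-like cells. The part of these ranges in the stage ratio was not tested.

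UHRF1 and DNMT1 were read against the replication genes. Germ-like cells were split at the median UMIs of the G1/S and S phase list, 11 at E105 and 10 at E85 after thinning to 6700. UHRF1 was higher in the cells above the median by 2.46-fold at E105 (1.32 to 4.75) and 1.47-fold at E85 (0.925 to 2.35), and DNMT1 by 2.51-fold (1.26 to 5.20) and 1.67-fold (1.02 to 2.78). In Sertoli-like cells UHRF1 followed the same list more steeply, by 19.2-fold at E105 (11.7 to 33.5) and 24.4-fold at E85 (15.4 to 40.7), and DNMT1 by 2.66-fold and 2.24-fold. The germ-like groups differed less in the list itself, with 16.4 UMIs per cell above and 7.92 at or below the median at E105 and 14.5 and 7.22 at E85. In Sertoli-like cells they had 6.45 and 1.00 at E105 and 6.12 and 0.925 at E85. MORC1 had 0.756 (0.568 to 1.00) and 0.997 (0.850 to 1.17) in germ-like cells.

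Genes with the most similar pattern over the 31 combinations were ranked by Pearson's r of log2(CPM + 1) among 5308 genes with at least 50 CPM in any of them. Those points share libraries, free RNA and depth, and r is a description. For MORC1 they were C1orf146 (0.951), PRR19 (0.936) and BRDT (0.929), for UHRF1 CLSPN (0.897), NUF2 (0.879) and RAD51AP1 (0.862), and for DNMT1 RBL1 (0.856), DEK (0.843) and TMPO (0.836). DNMT3B was most like DBF4 (0.856), SLF1 (0.809) and CCDC34 (0.792), and DNMT3A like NFAT5 (0.775), MSL1 (0.765) and PRKAR1B (0.760). TET1 was most like TMED5 (0.892), DDX17 (0.884) and RBM12B (0.876), TET2 like LRP10 (0.884), IFI6 (0.843) and R3HDM4 (0.827), and TET3, at its low counts, like TLE3 (0.670), SIPA1L1 (0.662) and SESN3 (0.661). Between members, r was 0.73 for TET1 and TET2, 0.67 for DNMT1 and UHRF1, 0.602 for DNMT3B and MORC1 and 0.601 for DNMT3B and UHRF1.

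Other genes of DNA methylation were read from lists of 63 genes, of which 58 had a feature and 51 were measured in germ-like cells of both stages. At E105 8 of 51 were at least 1.5-fold higher and 1 was lower, beside the 19.9% and 4.85% of all genes, and their median log2 ratio of 0.18 was near the 0.19 of all genes. Among partners and remodellers 1 of 10 passed. KDM1B, a histone demethylase needed in mouse oocytes for methylation of imprinted genes, stood at 276 CPM at E105 and 145 CPM at E85 (1.90, 1.69 to 2.14). USP7, a ubiquitin protease that binds DNMT1 and UHRF1, stood at 343 and 302 CPM, and HELLS, a chromatin remodeller that aids methylation, at 249 and 274 CPM. CDCA7L and DMAP1 had ratios of 1.04 and 1.23.

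None of the 6 measured methyl-DNA readers passed, with MBD4, a DNA glycosylase, at 61.1 CPM at E105 and 53.0 CPM at E85, MBD1 at a ratio of 1.36 and ZBTB38 at 0.988. Of 13 measured demethylation and repair genes 3 were higher and 1 lower. The higher ones were the stress-response genes GADD45A, at 49.8 CPM at E105 and 30.7 CPM at E85 (1.62, 1.23 to 2.13), GADD45B, at 31.6 and 8.12 CPM (3.89, 2.53 to 6.07), and GADD45G, at 19.3 and 10.8 CPM (1.78, 1.12 to 2.80). The lower one was the glycosylase NEIL2, with 5 UMIs at E105 and 25 at E85 (0.475, 0.142 to 1.26). TDG, the glycosylase that removes oxidised methylcytosine, stood at 23.0 and 16.5 CPM (1.40, 0.937 to 2.07), and PARP1 had a ratio of 0.968.

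Of 12 measured imprint and repeat silencing genes, TRIM28, a corepressor, was higher, at 107 CPM at E105 and 70.6 CPM at E85 (1.52, 1.26 to 1.82). MAEL had a ratio of 1.01, PIWIL4 of 1.25, SETDB1 of 0.806 and SPOCD1, which links the piRNA pathway to methylation in the mouse, of 1.14. MORC2 and MORC3, the relatives of MORC1, had ratios of 0.922 and 1.03. Of 8 measured methyl donor genes, 3 were higher, which were MAT2A, at 22.5 CPM at E105 and 13.1 CPM at E85 (1.72, 1.13 to 2.60), AHCYL1, at 25.2 and 15.1 CPM (1.67, 1.12 to 2.46), and BHMT, at 11.8 and 5.41 CPM (2.18, 1.16 to 4.05). AHCY, which clears the product of methyl transfer, stood at 361 and 439 CPM (0.822, 0.752 to 0.897). Of the 22 measured G1/S and S phase genes 8 were higher at E105 and 0 lower, with a median log2 ratio of 0.37. Of 19 G2/M genes 1 was higher and 0 lower, with a median of 0.15. Of all genes 19.9% were higher and 4.85% lower, with a median of 0.19.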

How the data were processed

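Droplet single-cell RNA libraries of 3 stages, 1 library each, were read as deposited. The values are raw counts of UMIs per feature and barcode, made by the authors with Cell Ranger, of which the file headers name version 6.0.0 and the submitters' processing notes version 3.1, and filtered to called cells before they were deposited. The genome build is not given in the sources used here. Barcodes entered with 1000 or more UMIs, 500 or more genes and no more than 20% of UMIs in 13 mitochondrial genes. Doublets were called within libraries by Scrublet, as run in scanpy 1.11.5, at an expected rate of 6%. This removed 195 at E85, 160 at E105 and 1 of 7319 (0.0137%) in E125, where it did not work. The 3000 most variable genes, 30 principal components, 15 neighbours and the Leiden method at resolution 1 yielded 26 clusters, named from markers. One that met the pregranulosa rule is called by its leading genes KRT7 and CITED1, and the division into cycling and non-cycling clusters was chosen after seeing the data.

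UMIs were summed per class and library. Classes with at least 50 cells were described, a gene counted as measured with at least 20 UMIs over both groups, and folds of 1.5 (stages) and 2 (classes) were used. All members are named. Of each related list the genes past 1.5-fold are named, and otherwise up to 4 with most UMIs, and for likeness the 3 genes with the highest correlation. The members and lists were chosen with earlier results of these data known. edgeR 4.0.16 and DESeq2 1.42.0 gave only scaling factors for alternatives. Only the stage ratio and its interval were tried on simulated data. Those were Poisson counts, with no variation between cells or libraries, so they show nothing about the other steps. No count test was possible with 1 library per stage. The symbols DNMT3L, DPPA3, APEX1, TEX15 and MORC4 were matched by no feature, and no sequences are shown.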

Additional observations from a re-analysis of the deposited data

Results flagged for a closer look

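DNMT1 differed between classes in the direction of its stage ratio. In germ-like cells the ratio of E105 to E85 was 1.40 (1.14 to 1.72), and in lymphoid-like cells it was 0.805 (0.683 to 0.951), at 142 CPM at E105 (379 UMIs) and 176 CPM at E85 (236 UMIs). Each class is 1 library per stage, and the difference between the classes was not tested.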

How the results depend on the processing

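No paired analysis was possible because each stage has 1 library and the stages share only the replicate number 1. Of 422 alternative values 330 stayed within the limits set for a change, 91 moved and 1 reversed. Over 13 alternatives the stage ratio in germ-like cells ran at 1.11 to 1.75 for DNMT1, 1.19 to 1.64 for DNMT3A, 0.814 to 1.37 for DNMT3B, 0.600 to 1.54 for UHRF1, 0.369 to 0.645 for TET1, 0.789 to 1.35 for TET2, 0.510 to 1.71 for TET3 and 0.711 to 1.09 for MORC1. DNMT1, DNMT3A and TET1 kept their direction in all 13. Over 14 alternatives the ratio to Sertoli-like cells at E105 and E85 ran at 144 to 836 and 79.0 to 359 for MORC1, 11.5 to 71.5 and 13.4 to 49.4 for DNMT3B, 1.34 to 3.77 and 1.35 to 3.51 for DNMT3A, and 1.47 to 8.18 and 1.41 to 10.4 for UHRF1.

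TMM scaling and median-of-ratios size factors each brought the median stage log2 ratio of all genes to 0.00, which they are built to bring near 0. They gave MORC1 stage ratios of 0.712 and 0.711. Both left 2 members at E105 and 3 at E85 at least 2-fold higher in germ-like than Sertoli-like cells. Both left 5 related genes higher at E105. The mean of per-cell CPM gave 1.11 for DNMT1, and thinning 0.369 for TET1. The stricter barcode filter put 3 members at least 1.5-fold apart between stages. Germ-like cells with few Sertoli marker UMIs (33 at E105 and 135 at E85) also gave 3, with MORC1 at 1.09 (0.962 to 1.23) and UHRF1 at 0.600 (0.339 to 1.00). The TET2 ratio to Sertoli-like cells at E105 reversed to 1.11 there, on 18 UMIs. With the Sertoli list taken without DMRT1 and WT1, added after seeing the data (48 and 120 cells), 2 members were that far apart, DNMT1 at 1.75 (1.32 to 2.32) and TET1 at 0.561 (0.260 to 1.11, 11 and 40 UMIs), while MORC1 was at 0.738 (0.651 to 0.835). The cause of these moves was not tested.

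Shares of germ-like cells with a UMI rest on depth. After thinning to 6700 in place of 4000 UMIs they were 71.3% at E105 and 78.0% at E85 for MORC1, 42.5% and 32.7% for UHRF1, 17.2% and 16.4% for DNMT3B, 27.1% for DNMT1 and 17.8% for DNMT3A at E85, and 13.8% for TET2 at E105. Unthinned they were 87.5% at E105 and 87.9% at E85 for MORC1, 58.3% and 52.3% for DNMT1, 45.8% and 38.5% for DNMT3A, 29.2% and 29.3% for DNMT3B, 55.2% and 57.3% for UHRF1, 19.8% and 25.9% for TET1, 22.9% and 23.4% for TET2, and 6.69% for TET3 at E85.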
